A study of Homo sapiens with 6 samples.

Results

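The transcripts described here are those of 7 genes whose products act on the glioma cell as ligands or enzymes of immune checkpoints: CD274, PDCD1LG2, CD276, CD47, NT5E, PVR and NECTIN2. They were chosen by name and found by their Ensembl identifiers, 7 of 57905 in the deposited tables, and all 7 were abundant enough to be tested among 14578 genes. The study sequenced total RNA of U87, an established human glioma cell line, to ask how depletion of RBM47, an RNA-binding protein, alters gene expression. It has 6 libraries: 3 labelled control (genotype WT, treatment no) and 3 labelled siRBM47, for cells given 100 pmol of small interfering RNA. All cells were U87 kept in serum-containing medium. The transfection protocol is attached to every sample, controls included, while the treatment label of the controls reads no, so an effect of transfection cannot be told apart from one of the siRNA. The time between transfection and RNA extraction is not given in the sources used here, and U87 is a single line grown without immune cells.

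Immune checkpoints are pairs of surface proteins through which one cell restrains an immune cell that touches it. PD-L1 (CD274) and PD-L2 (PDCD1LG2) bind PD-1 on T cells, and B7-H3 (CD276) is a related molecule of the B7 family whose receptor is less well established. PVR and NECTIN2 are adhesion molecules of the nectin family that bind the inhibitory receptor TIGIT and the activating receptor CD226. CD47 binds SIRPA on macrophages and restrains engulfment, and CD73 (NT5E) is a surface enzyme that makes adenosine, which dampens T cells, from AMP. In glioma, CD73, CD47 and B7-H3 are known as abundant surface proteins and have been studied as targets of therapy.

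In these data no checkpoint ligand passed the edgeR test adjusted over all genes. NECTIN2 came closest: each siRBM47 library lay below each control library, with a mean of 60.4 ± 11.2 against 99.3 ± 11.0 CPM (SD, n = 3 each; CPM are counts scaled to one common library size). The groups likewise did not overlap in 22.6% of all tested genes. In bulk RNA, fewer cells expressing a transcript and less of it per cell cannot be told apart. The ratio of PVR to NECTIN2 within a library was 0.955 to 0.993 in control and 1.19 to 1.23 in siRBM47. An exact two-sided permutation test gave p = 0.1, the smallest that 3 against 3 allows. NT5E was by far the most abundant of the 7 in every library.

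The 7 genes lie at 5 places in the genome, given on GRCh38 with GENCODE release 29, and all are protein-coding. CD274 (ENSG00000120217, chromosome 9, 5450503 to 5470566, plus strand) and PDCD1LG2 (ENSG00000197646, chromosome 9, 5510570 to 5571254, plus strand) are neighbours 40.0 kb apart. PVR (ENSG00000073008, chromosome 19, 44643798 to 44663583, plus strand) and NECTIN2 (ENSG00000130202, chromosome 19, 44846175 to 44889228, plus strand) lie 182.6 kb apart. CD276 (ENSG00000103855) is on chromosome 15 at 73683966 to 73714518, plus strand. CD47 (ENSG00000196776) is on chromosome 3 at 108043094 to 108091862, minus strand, and NT5E (ENSG00000135318) on chromosome 6 at 85449584 to 85495791, plus strand. Other genes overlap little of their exons: 3.4% of NECTIN2 exon length on the opposite strand and 3.4% of PVR exon length, by CEACAM19, on the same strand. The remaining 5 genes have no such overlap.

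Sequence before the start is shown for CD274, which interferon-gamma is known to induce, and for PVR and NECTIN2, whose transcripts kept the same order over the libraries of each group. RefSeq windows on GRCh38.p14 run from 250 bases before to 50 bases after a gene's start. They were available for 6 of the 7 genes but not for PDCD1LG2, and CD276 had windows at more than 1 start. Each stretch printed here ends just before the first base of the gene in GENCODE. In CD274 the capitals mark matches to GAAA, any 2 bases, GAAA, the paired core bound by interferon regulatory factors, and in PVR and NECTIN2 they mark GGGCGG, the GC box, both searched on both strands.
CD274, chr9:5450292-5450502, plus strand: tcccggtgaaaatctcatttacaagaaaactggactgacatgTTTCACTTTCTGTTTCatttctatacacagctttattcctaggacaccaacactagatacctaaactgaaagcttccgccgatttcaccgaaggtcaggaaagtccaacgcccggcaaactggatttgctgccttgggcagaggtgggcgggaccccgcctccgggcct
PVR, chr19:44643660-44643797, plus strand: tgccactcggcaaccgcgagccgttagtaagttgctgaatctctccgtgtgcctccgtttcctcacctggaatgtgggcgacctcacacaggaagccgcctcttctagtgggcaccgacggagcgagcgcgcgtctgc
NECTIN2, chr19:44846047-44846174, plus strand: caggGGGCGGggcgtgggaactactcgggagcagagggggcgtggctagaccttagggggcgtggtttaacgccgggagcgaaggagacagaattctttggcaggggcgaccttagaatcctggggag
The CD274 stretch holds 2 matches to the paired core, read on the other strand and overlapping each other at 5450334 to 5450343 and 5450340 to 5450349. Of 35116 RefSeq windows of 300 bases, 3.57% hold this motif, and the windows of the other 5 genes searched do not. The CD274 window also holds 1 match to TTCNNNGAA, the form bound by STAT factors, which 7.66% of windows hold. Over full windows, GGGCGG was found 7 times in 1 window of CD276, 6 times in that of CD47 and 3 times in that of NECTIN2. It was found 2 times for NT5E, 1 time for CD274 and 0 times for PVR, and in 45.0% of all windows. A match describes letters in the window and is no measure of binding.

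The libraries held 15580000 to 18130000 counts in total, rounded. The targeted gene RBM47 gave 24, 30 and 108 counts in the controls and 64, 48 and 40 in the siRBM47 libraries, replicates 1 to 3 in order (log2 fold change -0.11, SE 0.50, adjusted p = 0.942, edgeR), and leaving out control replicate 3 gave 0.76 (SE 0.36). Its depletion was not detected, so directions below are between libraries as labelled. Control replicate 3 stood apart, correlating at 0.941 and 0.95 with control replicates 1 and 2 in log2 CPM across genes, against 0.988 between these. Results on the 7 ligands that rest on it are given with and without it, and so are the calls in the lists around them. Of the glioma markers, VIM and CD44 were abundant, and SLC1A3 had 453 to 1056 counts, NES 203 to 275 and OLIG2 59 to 158. GFAP and SOX2 had at most 28 counts in a library, S100B at most 7, and AQP4 was at 0 throughout. The CDKN2A locus, known to be deleted in U87, gave 0 counts for CDKN2B and MTAP and 0 for CDKN2A apart from 9 in control replicate 1. Of 14 immune cell markers 13 had under 20 counts in every library, 5 of them at 0, and PTPRC, which marks all leukocytes, had at most 1. The exception was CSF1R, with 171 to 565 counts. The summed level of the immune markers was 13.1 to 26.9 CPM in the controls and 24.3 to 32.7 in siRBM47. CSF1R carried most of this sum, at 11.6 to 24.9 CPM in the controls and 22.8 to 31.6 in siRBM47.

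Levels between genes were compared in FPKM, the deposited values, which are scaled by gene length and library size. NT5E led at 135 ± 34.4 FPKM over the 6 libraries (SD), followed by CD47 at 23.4 ± 5.46, PVR at 22.5 ± 4.39, NECTIN2 at 21.1 ± 6.18, CD276 at 15.8 ± 5.32, CD274 at 9.40 ± 1.65 and PDCD1LG2 at 7.70 ± 1.43. NT5E was 5.75 times the next gene and their ranges did not overlap, whereas the ranges of every other pair of neighbours in this order overlapped. It made up 47.8% to 61.1% of the summed FPKM of the 7 genes. Among the 14578 tested genes NT5E ranked 337, within the top 2.3%, CD47, PVR and NECTIN2 ranked 2044 to 2254, and PDCD1LG2 ranked 5141. Both ligands of PD-1 thus had the lowest means of the panel in this line, and NT5E the highest.

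**Figure D1:**
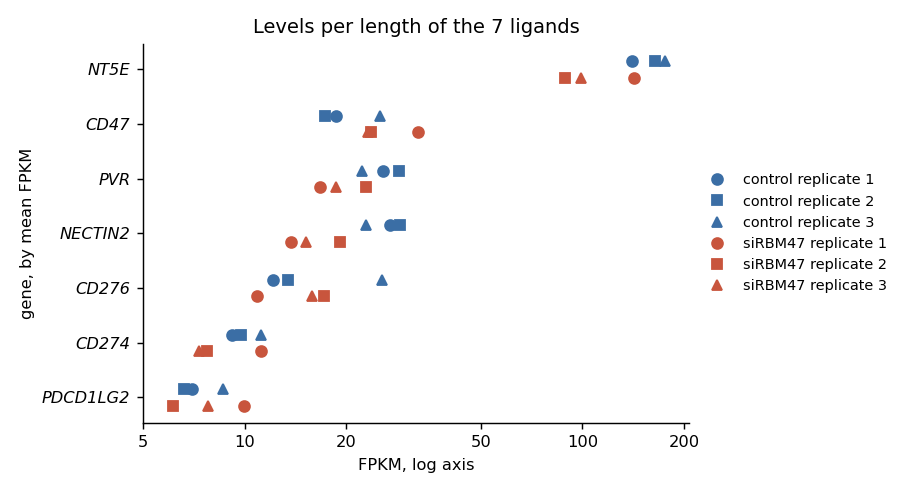
FPKM of the 7 ligands in each of the 6 libraries, on a log axis, with genes ordered by their mean; colours give the group and symbols the replicate. NT5E lies at 88.6 to 175 FPKM, apart from all others, and CD274 and PDCD1LG2 have the lowest means, with CD276 below CD274 in siRBM47 replicate 1.

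The order differed between the groups in its middle. In control it ran NT5E (160 ± 17.9 FPKM, SD, n = 3), NECTIN2 (26.2 ± 3.02), PVR (25.5 ± 3.24), CD47 (20.4 ± 4.25), CD276 (17.0 ± 7.44), CD274 (10.0 ± 1.06) and PDCD1LG2 (7.42 ± 1.08). In siRBM47 it ran NT5E (110 ± 28.0), CD47 (26.5 ± 5.35), PVR (19.4 ± 3.14), NECTIN2 (16.0 ± 2.84), CD276 (14.6 ± 3.32), CD274 (8.77 ± 2.12) and PDCD1LG2 (7.99 ± 1.93). NECTIN2 stood second in control and the fourth in siRBM47, and CD47 the fourth in control and second in siRBM47. Neighbours from NECTIN2 to CD276 overlapped in control, as did those from PVR to PDCD1LG2 in siRBM47. CD47 lay above PVR in 3 of 3 siRBM47 libraries and in 1 of 3 control libraries, control replicate 3.

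Of the nectin family ligands, NECTIN2, which also binds the inhibitory receptor PVRIG, was measured at 102, 109 and 87.4 CPM in the controls and at 51.2, 72.9 and 57.0 CPM in the siRBM47 libraries, replicates 1 to 3 in order here and below. Every siRBM47 library lay below the lowest control library, and the groups likewise did not overlap in 22.6% of all tested genes. On the log2 scale NECTIN2 differed by -0.72 (SE 0.20, 95% interval -1.17 to -0.27), a ratio of 0.608 with an interval of 0.446 to 0.829. It did not pass over all genes by edgeR (adjusted p = 0.139) and passed by DESeq2 (adjusted p = 0.0384). Without control replicate 3 it was called lower by edgeR as well, at -0.80 (SE 0.17, adjusted p = 0.00551). The adjusted p ran from 2.66e-05 to 0.458 over the 14 alternatives and the log2 fold change from -0.86 to -0.61. The lowest p came from limma-voom with library quality weights, chosen after seeing the data, and the lowest of the other alternatives was 0.00551.

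PVR, the poliovirus receptor, was at 91.1, 102 and 79.4 CPM in the controls and 58.9, 81.7 and 65.7 in siRBM47. The groups overlapped only in control replicate 3 and siRBM47 replicate 2. PVR differed by -0.40 on the log2 scale (SE 0.20, 95% interval -0.84 to 0.04; edgeR adjusted p = 0.36), with an interval of ratios from 0.558 to 1.03. Leaving out control replicate 3 gave -0.49 (edgeR adjusted p = 0.0555). Within both groups PVR and NECTIN2 ordered the libraries alike: replicate 2, then 1, then 3 in control, and replicate 2, then 3, then 1 in siRBM47.

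The ratio of PVR to NECTIN2, taken from FPKM within each library, does not depend on how libraries are scaled. It was 0.955, 0.993 and 0.967 in control and 1.23, 1.19 and 1.23 in siRBM47. The groups did not overlap, with a difference of 0.32 in the log2 ratio (mean -0.04 ± 0.03 in control and 0.28 ± 0.02 in siRBM47, SD, n = 3). How often ratios of other gene pairs separate the groups was not counted, here or for the ratio of CD274 to PDCD1LG2. An exact two-sided permutation test over libraries gave p = 0.1, the smallest that 3 against 3 allows, and 0.1 adjusted over the 2 ratios computed. Control replicate 3, which stood apart in many genes, gave a ratio between those of the other controls.

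**Figure D2:**
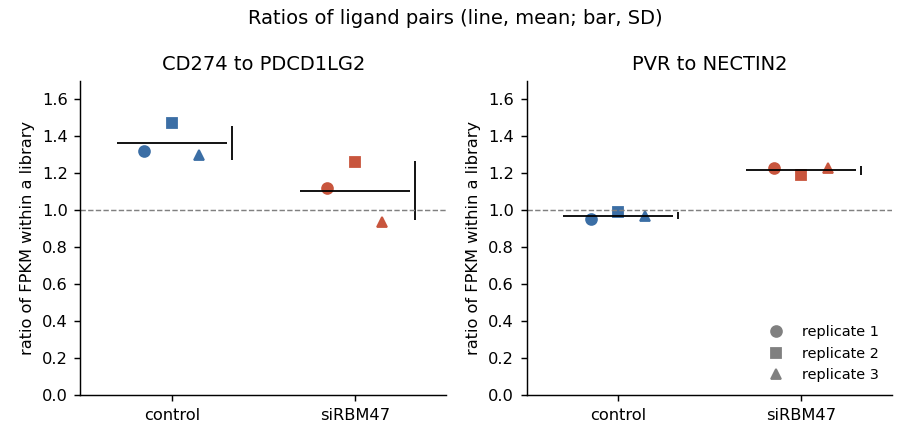
Ratio of FPKM within each library for the ligands of PD-1 (left) and for PVR and NECTIN2 (right); points are libraries, lines means and bars SD. The PVR to NECTIN2 ratio lies at 0.955 to 0.993 in control and 1.19 to 1.23 in siRBM47, and the CD274 to PDCD1LG2 ratio at 1.30 to 1.47 and 0.939 to 1.26.

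Of the ligands of PD-1, CD274 was at 38.0, 40.3 and 46.9 CPM in the controls and 46.1, 32.3 and 30.2 in siRBM47. The value of siRBM47 replicate 1 lay among the controls and those of replicates 2 and 3 lay below them. Fitted over all libraries, CD274 differed by -0.21 on the log2 scale (SE 0.21, 95% interval -0.69 to 0.28; edgeR adjusted p = 0.679), an interval that covers ratios from 0.622 to 1.21. Leaving out 1 library moved this to -0.42 without siRBM47 replicate 1, and to -0.11, -0.11 and -0.09 without control replicate 3, siRBM47 replicate 2 and siRBM47 replicate 3. PDCD1LG2 was at 17.0, 16.2 and 21.3 CPM in control, from 251 to 400 counts, and at 24.2, 15.1 and 18.9 in siRBM47. The highest and the lowest value of all were both siRBM47 libraries, and the log2 difference was 0.10 (SE 0.24, 95% interval -0.43 to 0.63, adjusted p = 0.877, edgeR). Without siRBM47 replicate 1 the sign turned, to -0.09 (SE 0.22), and without control replicate 3 the difference was 0.23 (SE 0.22). The ratio of CD274 to PDCD1LG2 was 1.32, 1.47 and 1.30 in control and 1.12, 1.26 and 0.939 in siRBM47. The groups did not overlap, with a log2 difference of -0.30 (0.44 ± 0.10 against 0.14 ± 0.21, SD, n = 3; exact two-sided permutation p = 0.1, the smallest possible, and 0.1 adjusted over the 2 ratios).

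CD276 varied most within a group. It was at 67.8, 74.8 and 144 CPM in the controls and 60.3, 96.8 and 87.6 in siRBM47, so that control replicate 3 was 2.13 times control replicate 1. Its log2 difference of -0.23 had the widest error of the panel (SE 0.31, 95% interval -0.92 to 0.46; edgeR adjusted p = 0.753). Leaving out control replicate 3 turned its sign, to 0.19 (SE 0.19, adjusted p = 0.506, edgeR). No direction can be given for this gene.

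CD47 was at 149, 138 and 203 CPM in the controls and 258, 189 and 183 in siRBM47. The siRBM47 libraries all lay above control replicates 1 and 2, and control replicate 3 lay among them. CD47 differed by 0.37 on the log2 scale (SE 0.22, 95% interval -0.13 to 0.86; edgeR adjusted p = 0.453). Without control replicate 3 CD47 was called higher, at 0.55 (SE 0.17, adjusted p = 0.0341, edgeR). The adjusted p ran from 0.00285 to 0.803 over the 14 alternatives, and the fold change stayed positive, at 0.19 to 0.55. Here too the lowest p came from limma-voom with library quality weights, and the lowest of the other alternatives was 0.0341.

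NT5E was at 566, 666 and 714 CPM in control, from 8363 to 13408 counts, and at 569, 361 and 399 in siRBM47. Replicates 2 and 3 of siRBM47 lay below all controls, and siRBM47 replicate 1 lay just above control replicate 1. For NT5E the log2 difference was -0.55 (SE 0.22, 95% interval -1.04 to -0.06; edgeR adjusted p = 0.261), a ratio of 0.684 with an interval of 0.488 to 0.958. Without siRBM47 replicate 1 it was -0.77 (SE 0.19, adjusted p = 0.254, edgeR), and without control replicate 3 -0.47 (SE 0.18, adjusted p = 0.0782, edgeR). It was -0.40 without siRBM47 replicate 2, -0.48 without siRBM47 replicate 3 and -0.52 without control replicate 2, and in these 3 fits its unadjusted p was above 0.05.

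**Figure D3:**
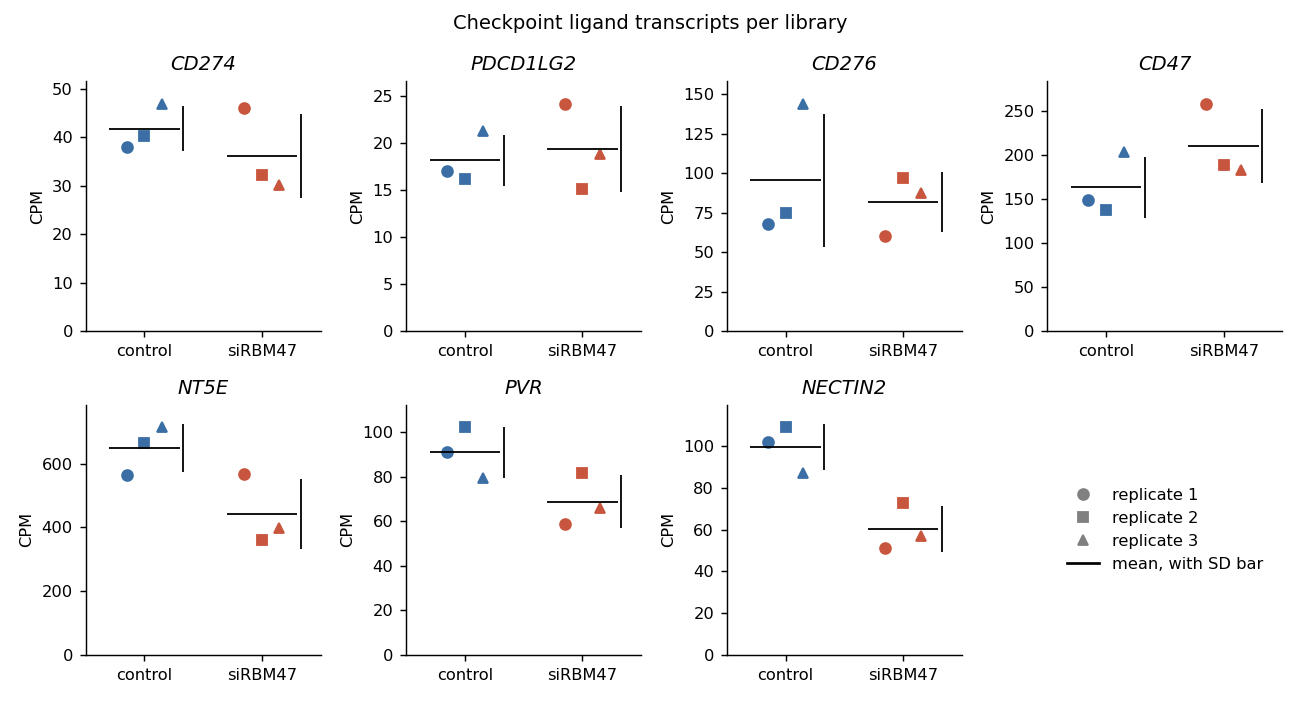
CPM of each ligand in the 6 libraries, with an axis from 0 in each panel; symbols give the replicate, lines the mean and bars the SD. Only NECTIN2 shows groups that do not overlap, as do 22.6% of all tested genes. Control replicate 3 is the highest control in CD276, CD47, CD274, PDCD1LG2 and NT5E and the lowest in PVR and NECTIN2.

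Over the panel, 0 of 7 genes passed by edgeR, where 0.22% of all tested genes did, and 0 of 7 by limma-voom, where 0.233% did. DESeq2 called 1 of 7, NECTIN2, against 4.51% of all genes (2.68% lower and 1.83% higher). At an unadjusted p under 0.05 by edgeR there were 2 of 7, NT5E and NECTIN2, both lower, against 16.1% of all genes (8.94% lower and 7.15% higher). The groups did not overlap in 1 of 7 genes, or 14.3%, against 22.6% of all genes. The median log2 fold change of the panel was -0.23, and -0.01 over all tested genes, with 5 of 7 values negative against 51.2% of all genes. Leaving out 1 library moved the panel's median from -0.39, without control replicate 1, to -0.11, without control replicate 3, where 4 of 7 values were negative. Without control replicate 3, edgeR called 2 of 7, CD47 higher and NECTIN2 lower, where 21.4% of all genes were called (10.1% higher and 11.3% lower). With library quality weights in limma-voom, chosen after seeing the data, 5 of 7 were called, CD47 higher and CD274, NT5E, PVR and NECTIN2 lower, against 44.2% of all genes (21.8% higher and 22.4% lower). Among the 5 libraries other than control replicate 3, the groups did not overlap in 3 of 7 genes (CD47, PVR and NECTIN2), against 54.2% of all genes. Fits without control replicate 3 rest on the small spread between control replicates 1 and 2.

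**Figure D4:**
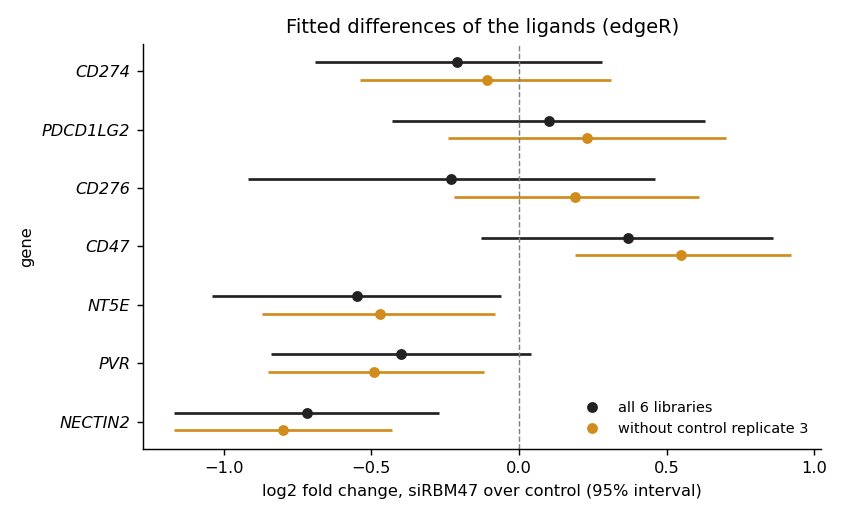
Log2 fold change of siRBM47 over control for each ligand with its 95% interval by edgeR, with all 6 libraries (black) and without control replicate 3 (orange). With all libraries the intervals of NT5E and NECTIN2 exclude 0 before adjustment, and CD276 changes sign without control replicate 3.

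The libraries that departed from their group did so in a like way for most of the panel. Control replicate 3 differed from the mean of control replicates 1 and 2 by 1.02 in log2 CPM for CD276, 0.50 for CD47, 0.36 for PDCD1LG2, 0.26 for CD274, 0.22 for NT5E, -0.27 for NECTIN2 and -0.28 for PVR. For siRBM47 replicate 1 against replicates 2 and 3 these differences were 0.58 for NT5E, 0.56 for CD274, 0.51 for PDCD1LG2 and 0.47 for CD47, and -0.31, -0.33 and -0.61 for PVR, NECTIN2 and CD276. The signs were the same for 6 of 7 genes, CD276 being the exception, and for 57.3% of all tested genes. The part of these departures in the differences between the groups was not tested.

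For each ligand the 3 genes of most similar pattern were taken by Pearson's r of log2 CPM over the 6 libraries, among 9598 genes whose log2 CPM averaged at least 3. For NECTIN2 they were EML3 (r = 0.998), PPP1R26 (0.995) and VPS16 (0.995), and for PVR C22orf23 (0.996), ELK1 (0.995) and TMEM109 (0.992). EML3 was at 53.9, 58.8 and 45.2 CPM in the controls and 26.5, 39.8 and 30.0 in siRBM47. For CD47 they were PLOD2 (0.995), DLG1 (0.995) and TET2 (0.991), and for NT5E KDM7A (0.988), POC1B (0.987) and KDSR (0.985). For CD274 they were CLDN12 (0.996), TTC14 (0.995) and ZNF451 (0.994), for PDCD1LG2 ZNF639 (0.995), PAIP1 (0.991) and CEP20 (0.989), and for CD276 PBXIP1 (0.996), DCAF5 (0.993) and PGD (0.992). Over only 6 libraries such values are common: 30 candidates exceeded 0.95 for NT5E and 207 for NECTIN2. Exon overlap with other genes was 59.5% for C22orf23, 16.6% for VPS16, 16.3% for CLDN12 and 12.2% for EML3, and the library kit does not mark strand.

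Around the panel, 8 lists hold 130 other genes of checkpoint biology, of which 128 were found and 87 tested. By edgeR 0 of 87 passed over all genes and by limma-voom 0, while 19 had an unadjusted p under 0.05 by edgeR (21.8%, against 16.1% of all genes). DESeq2 called 7 of 87, with 1 higher and 6 lower, against 4.51% of all genes (1.83% higher and 2.68% lower). The median log2 fold change was -0.13, against -0.01 over all tested genes. For reading the counts of each list, an unadjusted p under 0.05 by edgeR was found in 7.15% of all genes as higher and in 8.94% as lower, and the groups did not overlap in 22.6% of all genes. Without control replicate 3, edgeR called 32 of 87 (36.8%, against 21.4% of all genes), 21 higher and 11 lower.

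**Figure D5:**
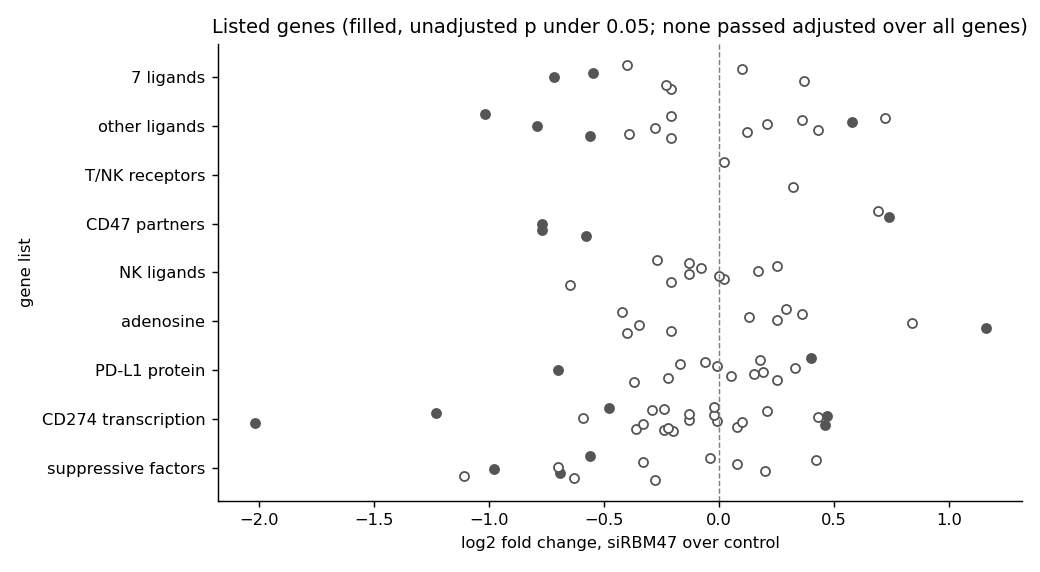
Log2 fold change of siRBM47 over control for each tested gene of the 7 ligands and the 8 lists around them; filled points have an unadjusted p under 0.05 by edgeR. No point passed adjustment over all genes, and the lowest values are those of IRF9 and SOCS3.

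Of 24 other ligands of T cell receptors, 13 were tested, and CD80 and CD86, the ligands of CD28 and CTLA4, were at 0 counts in every library. By edgeR 0 passed, with 1 higher and 3 lower at an unadjusted p under 0.05, and the median was -0.21. TNFSF9, the ligand of the co-stimulatory receptor 4-1BB, was at 39.0 ± 3.86 CPM in the controls and 19.3 ± 3.24 in siRBM47 libraries (SD, n = 3; log2 difference -1.02, SE 0.20; adjusted p = 0.0739 by edgeR and 0.00112 by DESeq2). CD70, the ligand of CD27, was at 66.3 ± 13.5 and 38.3 ± 4.30 CPM (adjusted p = 0.125 by edgeR and 0.0294 by DESeq2). The galectin LGALS3 was at 305 ± 57.7 and 455 ± 44.0 CPM (adjusted p = 0.203, edgeR). The butyrophilin BTN2A2 was at 10.6 ± 1.34 and 7.18 ± 0.593 CPM (adjusted p = 0.272, edgeR). These 4 were named for the smallest p of their list, and in 6 of its 13 tested genes, these included, the groups did not overlap. Leaving out control replicate 3, edgeR called 4 of the list higher and 2 lower, among them LGALS3 (0.74, adjusted p = 0.00345), CD70 (-0.95, adjusted p = 0.00155) and TNFSF9 (-0.93, adjusted p = 0.00378).

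The receptors themselves are expressed by T and NK cells, and 15 of 16 had under 20 counts in every library. PDCD1, which encodes PD-1, had at most 2 counts and TIGIT at most 10. Only 2 were tested and 0 passed by any of edgeR, DESeq2 and limma-voom; edgeR gave 0 at an unadjusted p under 0.05. TNFRSF9, which encodes 4-1BB, was at 2.37, 2.42 and 17.2 CPM in the controls and 7.51, 6.11 and 8.83 in siRBM47. Control replicate 3 was the highest of all, and without it TNFRSF9 was called higher (1.64, adjusted p = 0.00164, edgeR). KLRC1, an NK cell receptor gene with near-identical copies and therefore uncertain counts, had 6 to 12 counts, and DESeq2 gave it no adjusted p.

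Of 11 partners of CD47 and other signals to macrophages, 5 were tested. By edgeR 0 passed, with 1 higher and 3 lower at an unadjusted p under 0.05, and DESeq2 called 1 higher and 2 lower. SIRPA, the receptor of CD47, was itself expressed by these cells, at 33.5 ± 2.61 CPM in the controls and 55.9 ± 5.02 in siRBM47 libraries (SD, n = 3; log2 difference 0.74, SE 0.18; adjusted p = 0.106 by edgeR and 0.0119 by DESeq2). QPCTL, the enzyme that modifies the CD47 terminus that SIRPA binds, was at 37.2 ± 2.26 and 21.9 ± 3.57 CPM (-0.77, SE 0.19; adjusted p = 0.117 by edgeR and 0.0206 by DESeq2). LRP1, a receptor for the engulfment signal calreticulin, was at 370 ± 12.7 and 218 ± 61.2 CPM (-0.77, SE 0.22; adjusted p = 0.145 by edgeR and 0.0384 by DESeq2). CALR, which encodes calreticulin, was at 2260 ± 182 and 1510 ± 235 CPM (adjusted p = 0.188, edgeR), with 9.9% of its exon length covered by genes of the opposite strand. These 4 were named for the smallest p, and their groups did not overlap. The fifth tested gene, THBS1, which encodes the CD47 ligand thrombospondin-1, is named here after its values were seen: its groups overlapped (0.69, adjusted p = 0.548, edgeR), and 7.6% of its exon length is covered from the opposite strand. Without control replicate 3 all 5 were called by edgeR, THBS1 higher at 1.82 (adjusted p = 3.98e-05) and the others with adjusted p of 0.0047 to 0.0259, where 21.4% of all genes were called.

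Of 12 ligands of NK cell receptors, 10 were tested and 0 passed by any of edgeR, DESeq2 and limma-voom; edgeR gave 0 at an unadjusted p under 0.05 and a median of -0.10. CLEC2D, which binds an inhibitory receptor of NK cells, was at 3.53 ± 0.393 CPM in the controls and 2.24 ± 0.835 in siRBM47 libraries (SD, n = 3), with 12.1% of its exon length shared with another gene. HLA-E, the ligand of NKG2A, was at 287 ± 47.4 and 248 ± 35.3 CPM. The stress ligands ULBP1 and ULBP2 were at 6.34 ± 3.52 and 19.8 ± 2.45 CPM in the controls and 7.55 ± 1.79 and 18.2 ± 2.26 in siRBM47. Counts of HLA and ULBP genes, which have near-identical copies, are uncertain.

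Of 16 genes of extracellular ATP and adenosine, the pathway of NT5E, 10 were tested. By edgeR 0 passed, with 1 higher and 0 lower at an unadjusted p under 0.05, 0 passed by DESeq2 or limma-voom, and the median was 0.19. The adenosine receptor gene ADORA1 was at 1.80 ± 0.948 CPM in the controls and 4.06 ± 1.75 in siRBM47 libraries (SD, n = 3; adjusted p = 0.264, edgeR), with 8.4% of its exon length covered by genes of the opposite strand. DPP4, a surface protease that binds adenosine deaminase, was at 21.1 ± 14.0 and 37.9 ± 3.61 CPM. ADA, the deaminase that removes adenosine, was at 40.5 ± 4.32 and 30.6 ± 3.13, and the adenosine receptor gene ADORA2B at 51.9 ± 5.75 and 40.6 ± 2.14 CPM. ADORA1 and DPP4 were called higher without control replicate 3 (1.67 and 1.55, adjusted p = 0.0129 and 0.00013, edgeR), among 4 higher and 0 lower in the list.

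Regulators of PD-L1 protein gave 13 tested genes of 13 and 0 passed by any of edgeR, DESeq2 and limma-voom; edgeR gave 1 higher and 1 lower at an unadjusted p under 0.05 and a median of 0.05. ZDHHC9, a palmitoyl transferase, was at 45.1 ± 1.43 CPM in the controls and 59.7 ± 4.66 in siRBM47 libraries (SD, n = 3). HIP1R, which directs PD-L1 to lysosomes, was at 17.9 ± 5.73 and 11.0 ± 2.93 CPM. The ubiquitin ligase adaptors BTRC and SPOP were at 21.5 ± 0.196 and 37.8 ± 16.1 CPM in the controls and 25.6 ± 2.33 and 47.6 ± 4.20 in siRBM47. Leaving out control replicate 3, SPOP was called higher (0.74, adjusted p = 0.00819, edgeR) and HIP1R lower (-0.95, adjusted p = 0.00956, edgeR).

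Of the 22 genes of interferon-gamma signalling and CD274 transcription all were tested, and 0 passed by edgeR or limma-voom. At an unadjusted p under 0.05 by edgeR 2 were higher and 3 lower, DESeq2 called 2 lower, and the median was -0.17. SOCS3, a feedback inhibitor of cytokine signalling, was at 88.7 ± 22.1 CPM in the controls and 37.8 ± 4.07 in siRBM47 libraries (SD, n = 3; log2 difference -1.23, SE 0.22; adjusted p = 0.069 by edgeR and 0.000134 by DESeq2). IRF9, a DNA-binding factor of the interferon response, had 23, 28 and 23 counts in control and 4, 8 and 7 in siRBM47 (-2.02, SE 0.46; adjusted p = 0.0977 by edgeR and 0.0311 by DESeq2). With 48.4% of its exon length shared with another gene on the same strand, its counts are uncertain. PTPN2, a phosphatase that restrains JAK and STAT proteins, was at 23.5 ± 3.19 and 32.5 ± 5.01 CPM, and the kinase TYK2 at 90.5 ± 8.62 and 64.7 ± 14.7 (adjusted p = 0.296 and 0.306, edgeR). Leaving out control replicate 3, edgeR called 6 of the list higher and 2 lower, among them PTPN2 (0.59, adjusted p = 0.0404), SOCS3 (-1.01, adjusted p = 0.000972) and IRF9 (-2.13, adjusted p = 0.0092).

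Of 16 enzymes and secreted factors that dampen immune cells, 12 were tested. By edgeR 0 passed, with 0 higher and 3 lower at an unadjusted p under 0.05, 0 passed by DESeq2 or limma-voom, and the median was -0.44. PTGES, which makes prostaglandin E2, was at 22.7 ± 5.73 CPM in the controls and 11.5 ± 4.13 in siRBM47 libraries (SD, n = 3; adjusted p = 0.178, edgeR). KYNU, an enzyme of tryptophan breakdown, was at 116 ± 20.7 and 71.9 ± 21.1 CPM. The growth factor VEGFA was at 775 ± 219 and 527 ± 61.5 CPM and the cyclooxygenase PTGS2 at 17.0 ± 1.68 and 10.5 ± 6.65. Leaving out control replicate 3, edgeR called 3 of the list higher and 3 lower. The lower genes were PTGES (-1.08, adjusted p = 0.0159), KYNU (-0.83, adjusted p = 0.00976) and VEGFA (-0.77, adjusted p = 0.00227). The higher ones, named after their values were seen, were the tryptophan dioxygenase gene TDO2 (1.38, adjusted p = 0.00376) and the TGF-beta genes TGFB2 (1.57, adjusted p = 0.000292) and TGFB3 (1.71, adjusted p = 0.00378). TGFB2 shares 26.6% of its exon length with another gene on its strand, so its counts are uncertain.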

How the data were processed

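The 6 libraries of U87 total RNA (3 control, 3 siRBM47) were grouped by sample title. The submitters' processing notes name HISAT2 2.0.5, featureCounts 1.5.0-p3 and hg38, while for annotation release and strand setting nothing is given in the sources used here. Per the labels' protocols, strand is not marked by the kit. Each deposited file lists, per its header, raw counts and FPKM for every gene; FPKM values are the authors' own. FPKM were used for levels between genes and for ratios within a library, and counts for all other values.

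With a minimum count of 10 in filterByExpr, 14578 genes remained; edgeR 4.0.16 tested them (TMM factors, quasi-likelihood, no block, R 4.3.3) with Benjamini-Hochberg adjustment over all of them and a threshold of 0.05. The SE is the size of the log2 fold change divided by the square root of F. CPM use TMM-scaled library sizes, and log2 CPM a prior count of 2. Ratios were compared by exact permutation over libraries. The fit was tested on simulated data. Alternatives were RLE and upper quartile factors, DESeq2 1.42.0, limma-voom (limma 3.58.1), a replicate block, a minimum count of 50, no count filter and leaving out each library; library quality weights were added after seeing the data. Shares of all genes called by DESeq2 leave out genes to which it gave no adjusted p. Counts within the lists keep such genes, KLRC1 among them, as not called.

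The 7 genes and the lists were chosen with earlier results of these data known. The named genes are the 7, any listed gene that passed or else up to 4 per list with the smallest p, and 3 genes of most similar pattern each; CD80, CD86, PDCD1, TIGIT, THBS1, TDO2, TGFB2 and TGFB3 were named after their values were seen. Of the identifiers, 5909 had no symbol, and the symbols CD24 and ADORA3 had no match. Libraries within a group differed beyond counting noise (chi-square per degree of freedom 10.74 or more). Whether replicates were separate cultures is not in the labels; p-values therefore measure only the spread among these libraries, possibly technical.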

Additional observations from a re-analysis of the deposited data

How the results depend on the processing

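The number of genes called over all genes was 32 with edgeR, 644 with DESeq2, 804 without a count filter and 6444 with library quality weights, which were 0.117 for control replicate 3 and 0.318 for siRBM47 replicate 1 and 1.35 to 5.69 for the others. Leaving out 1 library gave 0 to 3117: 3117 without control replicate 3, 19 and 12 without control replicates 1 and 2, and 0 by edgeR without each siRBM47 library, where 1789, 1816 and 1445 genes had an unadjusted p under 0.05. Of the 7 ligands, 0 were called with all libraries by edgeR, 1 by DESeq2 (NECTIN2), 5 with quality weights (CD274, NT5E, PVR and NECTIN2 lower, CD47 higher) and 0 to 2 with 1 library left out. CD276 reversed to 0.19 without control replicate 3 and to 0.25 with quality weights, and PDCD1LG2 to -0.09 without siRBM47 replicate 1 (leaving out 1 library gave -0.42 to 0.19 and -0.09 to 0.27); the cause was not tested. The other 5 ligands kept their sign in all 14 alternatives. Both ratios kept theirs in all 8 alternatives (-0.40 to -0.19 for CD274 to PDCD1LG2 and 0.31 to 0.34 for PVR to NECTIN2). For the ratios this was largely fixed in advance, because groups that do not overlap cannot change sign when 1 library is left out. The order of levels was the same in TPM, which scales all FPKM of a library by a common factor and so cannot reorder genes within it. Whether replicate numbers pair the libraries is not in the labels. Deviations from the group means correlated at -0.036, 0.127 and 0.116 for numbers 1, 2 and 3, and at -0.206 to 0.2 for unlike numbers. With 3 libraries per group these values cannot decide on a pairing. With the replicate block 39 genes and 0 ligands were called (2 ligands at an unadjusted p under 0.05). The log2 ratio differences, averaged over libraries of the same number, were -0.30 and 0.32. These equal the unpaired differences by arithmetic and say nothing on pairing. All 7 ligands had 251 or more counts in each library, but counting error was not set against the spread between libraries for each ligand. The SD of the ratios within a group was as low as 0.02 in log2 (PVR to NECTIN2, siRBM47). Such SDs can understate the uncertainty of the ratios.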
